A study of Mus musculus with 7 samples.

Results

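The lower and the upper first molar of the mouse are the same tooth type formed in opposing jaws, and their open chromatin was compared here from 1 whole-tooth library of each. Members were taken as the autosomal peaks of the 2 libraries. Peaks that shared at least 1 bp were merged into regions, and a region with a peak in one molar and none in the other was called lower-only or upper-only. The 68877 lower molar peaks and 67193 upper molar peaks gave 75725 merged regions, of which 58558 (77.3%) held a peak in both molars, 9352 (12.3%) were lower-only and 7815 (10.3%) were upper-only. A stricter part of the rule took the 20000 peaks of each molar with the smallest caller p-value and kept those with no peak at all in the other molar. It kept 0 (0%) of the lower molar peaks and 0 (0%) of the upper molar peaks.

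The 2 molar libraries were among 7 Omni-ATAC libraries, an assay in which a transposase cuts accessible DNA. Both molars were dissected as whole teeth at postnatal day 2, and the labels name no mutation, treatment or strain for them. The other 5 libraries were 1 whole lower incisor at postnatal day 2, 2 libraries of Sox2-positive cells sorted from the labial cervical loop of postnatal day 2 lower incisors of a Sox2-GFP line, and 2 libraries of ectoderm peeled from first pharyngeal arches at embryonic day 11.5. These first arches give rise to both jaws, so the ectoderm libraries do not separate upper from lower jaw. With 1 library per jaw there is no replicate check of any difference between the molars, and no p-value is given. In whole teeth, fewer cells of a type and less open chromatin per cell cannot be told apart.

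Jaw identity is laid down in the first pharyngeal arch before teeth form. Endothelin signalling, from the ligand Edn1 through its receptor Ednra, switches on Dlx5, Dlx6, Hand2 and other homeobox and basic helix-loop-helix genes in the future lower jaw, while cells outside its reach keep an upper-jaw program that includes Pou3f3, Nr2f1 and Nr2f2. Dlx1 and Dlx2 are active in both parts of the arch, and mice that lack both lack upper molars but keep lower ones. Mice without Inhba, which encodes an activin subunit, show the reverse, keeping upper molars and lacking lower ones.

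The regions that bear most directly on single genes were those over promoters, so 6 promoters with a peak in 1 molar are printed first, each as the 250 bases before the annotated start from RefSeq (GRCm38.p6, the assembly behind mm10), 5′ to 3′. Capitals mark matches, on either strand, to 5 motifs: TAATTA (a homeodomain core), CATCTG (an E-box bound by HAND factors), GGGCGG (the GC box), CACTTAA (an NK2 homeodomain site) and ATGCAAAT (the POU octamer). The first 3 lay under lower-only regions, the last 3 under upper-only regions.
Nkx2-3, chr19:43612075-43612324 (+ strand): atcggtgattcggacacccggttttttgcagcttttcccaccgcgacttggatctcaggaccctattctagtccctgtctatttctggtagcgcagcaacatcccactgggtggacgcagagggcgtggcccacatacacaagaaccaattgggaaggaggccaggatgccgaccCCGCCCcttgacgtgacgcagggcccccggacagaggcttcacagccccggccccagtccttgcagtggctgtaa
Fgf10, chr13:118714449-118714698 (+ strand): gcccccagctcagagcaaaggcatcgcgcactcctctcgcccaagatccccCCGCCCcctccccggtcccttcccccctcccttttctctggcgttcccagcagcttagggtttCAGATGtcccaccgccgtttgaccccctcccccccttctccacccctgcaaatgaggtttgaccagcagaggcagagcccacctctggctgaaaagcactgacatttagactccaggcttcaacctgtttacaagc
Tie1, chr4:118489850-118490099 (− strand): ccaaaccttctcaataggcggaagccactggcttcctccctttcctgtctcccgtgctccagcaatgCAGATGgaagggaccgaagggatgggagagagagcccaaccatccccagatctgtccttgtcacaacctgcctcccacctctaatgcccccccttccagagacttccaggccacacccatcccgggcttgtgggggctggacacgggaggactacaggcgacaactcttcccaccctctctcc
Gbx2, chr1:89931177-89931426 (− strand): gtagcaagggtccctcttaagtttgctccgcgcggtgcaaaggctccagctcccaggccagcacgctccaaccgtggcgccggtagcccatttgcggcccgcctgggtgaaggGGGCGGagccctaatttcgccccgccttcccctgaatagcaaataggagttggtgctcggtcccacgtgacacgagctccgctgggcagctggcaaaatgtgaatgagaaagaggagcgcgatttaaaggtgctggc
Rgs5, chr1:169655251-169655500 (+ strand): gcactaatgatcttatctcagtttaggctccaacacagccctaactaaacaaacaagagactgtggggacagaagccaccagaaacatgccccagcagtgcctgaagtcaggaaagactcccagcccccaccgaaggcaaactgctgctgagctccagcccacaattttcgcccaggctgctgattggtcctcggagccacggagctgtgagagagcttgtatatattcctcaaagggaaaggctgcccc
Klk4, chr7:43880910-43881159 (+ strand): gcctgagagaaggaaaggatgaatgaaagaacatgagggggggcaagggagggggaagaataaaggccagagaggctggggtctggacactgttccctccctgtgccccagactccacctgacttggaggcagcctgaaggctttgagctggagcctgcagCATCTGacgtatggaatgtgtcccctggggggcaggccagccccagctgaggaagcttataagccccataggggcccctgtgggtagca

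A GC box was found in the Nkx2-3, Fgf10 and Gbx2 promoters, and the HAND-type E-box in the Fgf10, Tie1 and Klk4 promoters. No match to any of the 5 was found in the Rgs5 sequence. Over all 20085 RefSeq autosomal windows, which run from 250 bases before to 50 after each start, the GC box was in 43.4%, the E-box in 12.5%, the homeodomain core in 4.26%, the NK2 site in 1.86% and the octamer in 1.59%. No motif of the 5 is contained in another, and a match is a description of the sequence only.

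By presence of a peak, the molars differed among the weaker peaks of each list. Among the first 20000 peaks of either molar every peak had a counterpart, and the peak at rank 20000 had a −log10 p of 5.37 in the lower molar and 5.35 in the upper. The best one-molar peak had rank 21577 in the lower list (−log10 p of 5.23) and rank 20257 in the upper list (5.32). Extending to 30000 peaks found 30 lower molar peaks (0.1%) and 29 upper molar peaks (0.0967%) without a counterpart. Below that the share climbed with rank, to 3.79% of lower molar peaks between ranks 30001 and 40000, 14.9% in the next 10000, 33.5% in the 10000 after that and 46.2% in the last 8877. The upper molar list followed the same course, with 2.97%, 14.0%, 30.4% and 42.4%. The 0 depends on counting any shared base: with windows of 200 bp around each summit in place of whole peaks, 681 of the first 20000 peaks of the lower molar and 689 of the upper had no counterpart. The median −log10 p was 3.56 for lower-only and 3.59 for upper-only regions, against 4.69 for shared regions in the lower list. One-molar regions were also narrow, with a median of 319.5 bp (lower-only) and 353 bp (upper-only) against 608 bp for shared regions. A shared region is the union of peaks from both molars, so it is at least as wide as any of them.

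**Figure D1:**
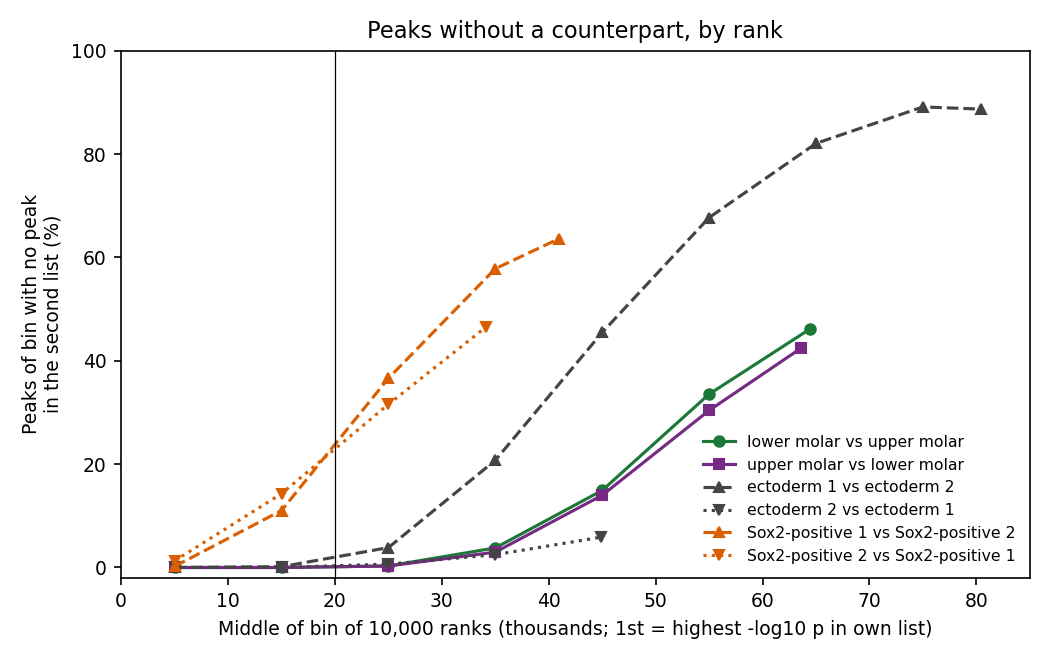
Share of peaks (y axis, %) in successive bins of 10000 ranks (x axis, in units of 1000 ranks, strongest first) with no peak in a second list, for the molars in both directions and for the replicate pairs of ectoderm and of Sox2-positive cells. The vertical line marks rank 20000, before which the molar lines stay at 0; both molar lines reach over 40% in their last bin.

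The 2 replicate pairs of the series gave a yardstick for how far lists of the same tissue differ. Under the rule that gave 0 for the molars, ectoderm replicate 1 had 16 peaks (0.08%) with none in replicate 2 and the reverse count was 1 (0.005%). The Sox2-positive replicates had 1125 (5.62%) and 1557 (7.79%). The molars thus differed less at these ranks than either replicate pair did. List lengths bear on this, because the replicate lists of 80850 and 49719 peaks (ectoderm) and 41829 and 38326 peaks (Sox2-positive) were unequal or short. With every list held to its best 38326 peaks, 4387 lower molar peaks (11.4%) and 4407 upper molar peaks (11.5%) lacked a counterpart. The same count between ectoderm replicates was 13.3% and 13.1%, and between Sox2-positive replicates 24.9% and 25.4%. By this measure fewer peaks lacked a counterpart between the jaws than between replicates in both groups that had them. Equal list length does not equalise read depth or library quality, which were not compared. The values therefore do not place the jaw difference below the spread between replicate molars, which has not been measured.

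The whole lower incisor stood further from each molar than the molars did from each other. Among its first 20000 peaks, 214 (1.07%) had no peak in the lower molar and 507 (2.54%) none in the upper molar. In the other direction, 736 lower molar peaks (3.68%) and 1039 upper molar peaks (5.2%) had none in the incisor. With all lists held to 38326 peaks, 28.4% of incisor peaks had none in the lower molar and 30.3% none in the upper, and 28.5% and 30.3% of lower and upper molar peaks had none in the incisor. By each of these measures the lower molar was nearer to the lower incisor than the upper molar was. Among the first 20000 peaks, the counts between incisor and molars were above those between ectoderm replicates (16 and 1). They were below those between Sox2-positive replicates (1125 and 1557). At 38326 peaks the shares were above those of both replicate pairs, the nearer being Sox2-positive cells at 24.9% and 25.4%.

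The other 5 libraries played no part in choosing the regions, so a peak there is a separate readout. Lower-only regions held a lower incisor peak in 49.5% of cases (Wilson 95% interval 48.5 to 50.5), against 25.9% (24.9 to 26.9) of upper-only regions and 73.3% of shared ones. These intervals cover the counting of regions, not differences between animals or libraries. In counts, 4626 regions were open in the lower molar and lower incisor but not the upper molar, and 2022 in the upper molar and lower incisor but not the lower molar, a ratio of 2.29. The incisor library is from a lower-jaw tooth. No upper incisor was analysed here, so sharing by jaw and sharing between these particular libraries cannot be told apart.

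Embryonic ectoderm gave the opposite order. Ectoderm replicate 1 had a peak in 27.4% (26.5 to 28.3) of lower-only regions and 33.7% (32.7 to 34.7) of upper-only regions. In ectoderm replicate 2 the shares were 18.1% (17.3 to 18.9) and 22.4% (21.5 to 23.4). Both replicates therefore placed upper-only regions above lower-only regions. Sox2-positive cells placed lower-only regions higher, with 14.2% against 12.6% in replicate 1 and 16.4% against 10.4% in replicate 2. Regions present in both ectoderm replicates but not in the incisor made up 11.0% of lower-only and 18.1% of upper-only regions, and regions present in the incisor but in neither ectoderm replicate 38.1% and 19.7%. No peak in any of the other 5 libraries was found for 32.0% of lower-only, 42.8% of upper-only and 13.8% of shared regions.

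**Figure D2:**
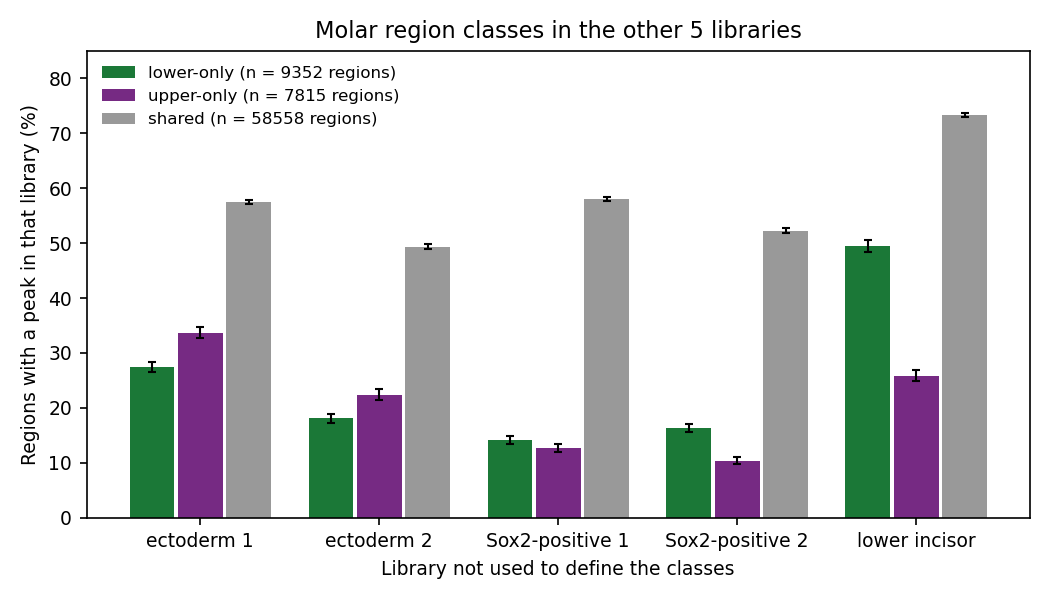
Share of lower-only, upper-only and shared regions (y axis, %) with a peak in each of the 5 libraries that did not define them; error bars are Wilson 95% intervals that cover counting of regions only. The lower incisor shows the widest gap between one-molar classes, 49.5% for lower-only against 25.9% for upper-only, and both ectoderm libraries show upper-only above lower-only.

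One-molar regions lay mostly away from genes' ends. Within 1 kb of an end of a protein-coding gene lay 6.34% (5.86 to 6.85) of lower-only and 5.95% (5.45 to 6.50) of upper-only regions, against 20.5% of shared regions. Shared regions also had stronger peaks, and no share matched for rank was computed. The median distance to the nearest gene end was 19.8 kb for lower-only, 32.2 kb for upper-only and 14.3 kb for shared regions. The RefSeq table used for this gives no strand, so an end can be the start or the finish of a gene. With 200 bp windows around summits the shares were 11.5% and 11.7%.

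Around 22 of the 24 jaw-identity genes the strongest region was present in both molars, and the one-molar regions there were mixed in direction. The exceptions were Gbx2, with no shared region, and Nkx2-3, whose strongest region was lower-only. Every peak among the first 20000 of either molar had a counterpart. A shared strongest region was therefore fixed in advance for any window holding such a peak. The same count over all gene windows was not made, so it says nothing particular to jaw genes. The 24 genes were 15 of the mandibular program, 6 of the maxillary program and 3 whose loss removes the molars of 1 jaw, each within its body and 50 kb on either side. Of the 15 mandibular genes, 4 had lower-only regions alone, 2 had upper-only regions alone, 8 had both and 1 had neither. Of the 6 maxillary genes, 0 had lower-only regions alone, 1 had upper-only regions alone, 3 had both and 2 had neither. All 3 one-jaw molar genes had upper-only regions alone. Over all 20665 autosomal protein-coding genes, 24.6% had lower-only regions alone, 15.4% upper-only alone, 23.1% both and 36.9% neither, so the 4 of 15 is close to that background. Windows of neighbours overlap (Dlx1 with Dlx2, Dlx3 with Dlx4, Dlx5 with Dlx6), and their regions are counted under both genes.

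**Figure D3:**
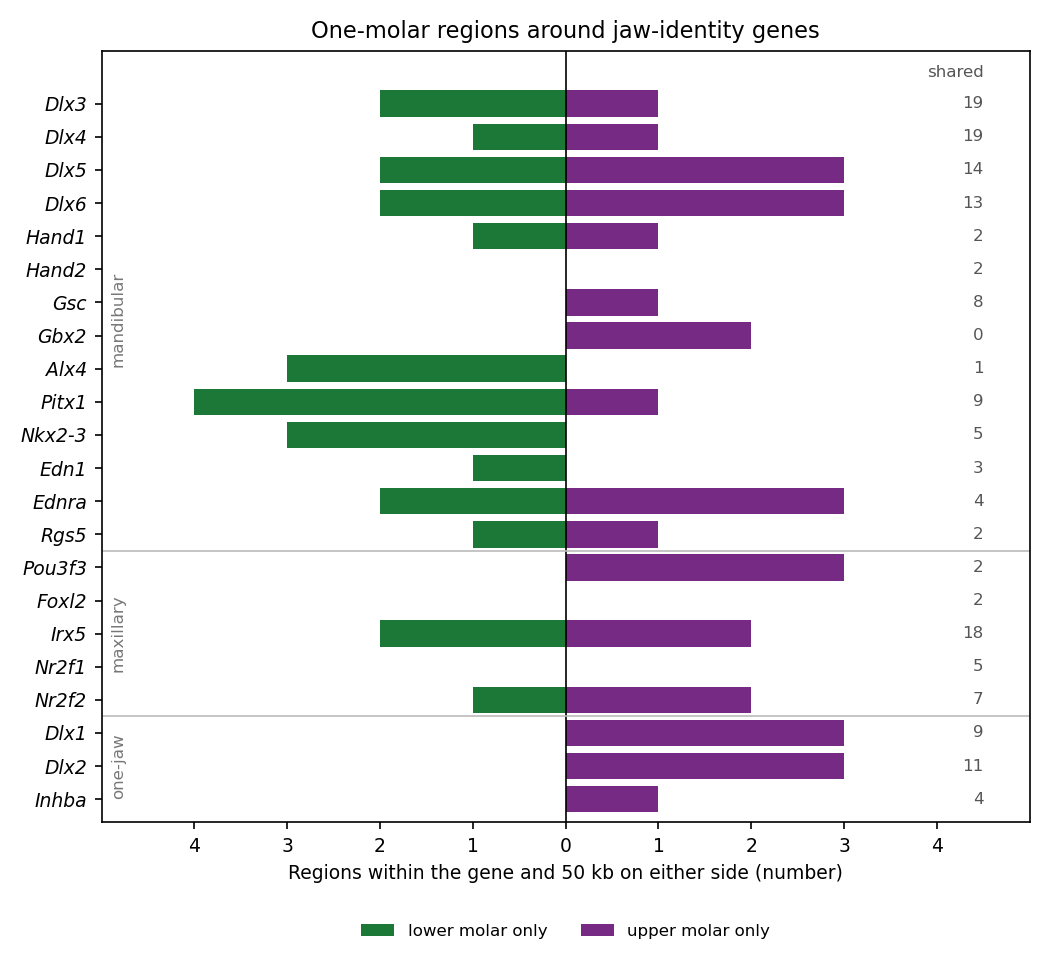
Number of lower-only regions (bars to the left) and upper-only regions (bars to the right) in the body of 22 of the jaw-identity genes and 50 kb on either side, with the number of shared regions at the right edge. Nkx2-3, Alx4 and Edn1 have bars to the left alone (at equal list length Edn1 turns to the right); Pou3f3, Dlx1, Dlx2, Gbx2, Gsc and Inhba have bars to the right alone.

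Among the ligand and receptor that start the mandibular program, Edn1 had 1 lower-only, 0 upper-only and 3 shared regions. With both lists held to 38326 peaks, where a region whose weaker peak falls past that rank counts as one-molar, its direction turned, to 0 lower-only, 1 upper-only and 0 shared. Its receptor Ednra had 2 lower-only, 3 upper-only and 4 shared regions, and the strongest shared one, 0.375 kb from a gene end, had a −log10 p of 6.33 in the lower and 6.63 in the upper molar. Rgs5, which encodes a regulator of G-protein signalling, had 1 lower-only and 1 upper-only region. Its upper-only region chr1:169655295-169655522 overlapped the promoter printed above, with a −log10 p of 3.76. The lower incisor (3.26), both ectoderm replicates (5.46 and 5.36) and Sox2-positive replicate 1 (3.70) also had a peak there.

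The Dlx genes, homeobox factors that set position along the arch, had most of their regions in both molars. Dlx5 had 14 shared regions against 2 lower-only and 3 upper-only, and Dlx6 had 13 against 2 and 3. At 38326 peaks per list Dlx5 had 1 lower-only and 0 upper-only regions and Dlx6 had none of either. The Dlx5 one-molar peaks of the full lists ranked from 46917 to 59743, so that 1 is another region. A single shared region at an end of Dlx5, chr6:6881026-6882985, had a −log10 p of 9.04 in the lower and 9.03 in the upper molar and was present in all 5 other libraries. Dlx3 had 19 shared regions with 2 lower-only and 1 upper-only, and Dlx4 had 19 with 1 and 1. The lower-only region 3.25 kb from Dlx3 had a −log10 p of 3.53 and its only other peak was in the lower incisor (4.76). The strongest region of each of these 4 windows was shared and was found in all 7 libraries.

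Hand1 and Hand2, basic helix-loop-helix factors downstream of endothelin, had 2 shared regions each. Hand1 also had 1 lower-only and 1 upper-only region, and Hand2 had none of either. Gsc, a homeobox gene of the lower jaw, had 8 shared and 1 upper-only region. Gbx2, another homeobox gene of the mandibular arch, had no shared region and 2 upper-only ones. The first, chr1:89931154-89931564 at the promoter printed above, had a −log10 p of 3.87 in the upper molar and 5.04 and 4.68 in the ectoderm replicates, and was absent from the incisor and from both Sox2-positive libraries. At 38326 peaks per list neither Gbx2 nor Gsc had a one-molar region.

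Nkx2-3, an NK2-class homeobox gene needed for salivary gland and tooth shape, had 3 lower-only, 0 upper-only and 5 shared regions, and held 2 of the 30 best lower-only peaks. The promoter region chr19:43612092-43612401 had a −log10 p of 4.72 in the lower molar and no peak in the upper molar. The other 5 libraries all had a peak there, with 7.17 and 5.87 in the ectoderm replicates, 4.13 and 4.25 in the Sox2-positive replicates and 4.80 in the incisor. The upper molar was thus the only library of the 7 without a peak at this promoter. A region 13.5 kb beyond the gene, chr19:43629189-43629554, had a −log10 p of 5.17 (rank 22294) in the lower molar, 5.22 in the lower incisor and 3.82 in Sox2-positive replicate 1, and none elsewhere. The third, chr19:43614580-43615094 inside the gene, had 3.15 and was found in no other library. With both lists held to 38326 peaks, the Nkx2-3 window had 3 lower-only, 2 upper-only and 1 shared region. The region inside the gene, at rank 67535, is not in that shorter list, so those 3 are not the same regions.

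Windows with at least 3 lower-only and no upper-only regions made up 4.04% of all gene windows, and those with at least 3 upper-only and no lower-only regions 0.915%. Nkx2-3 and Alx4 met the first condition among the 24 jaw genes, and Pou3f3, Dlx1 and Dlx2 the second. Alx4 is a paired-type homeobox gene of the distal jaw and midface. Alx4 had 3 lower-only regions, 2 of them inside the gene. The one at its end, chr2:93642504-93642744, had a −log10 p of 3.85 in the lower molar, 4.56 in the incisor, 4.76 and 4.63 in the ectoderm replicates and 3.51 in Sox2-positive replicate 2. The one inside, 6.96 kb from the nearer end, had 3.10 in the lower molar and a peak in all 5 other libraries, from 3.70 in Sox2-positive replicate 1 to 6.03 in ectoderm replicate 1. Pitx1, a homeobox gene of the mandible and hindlimb, had 4 lower-only, 1 upper-only and 9 shared regions, and its lower-only regions had a −log10 p between 3.15 and 3.60. At 38326 peaks per list Alx4 had 0 one-molar regions, and Pitx1 had 2 lower-only and 0 upper-only. The Pitx1 lower-only peaks of the full list ranked from 57575 to 67447, so those 2 are other regions.

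The maxillary gene Pou3f3, a POU-domain factor of the upper jaw, had 3 upper-only, 0 lower-only and 2 shared regions. They lay 1.74 kb outside the gene (chr1:42693931-42694136, −log10 p of 3.52), inside it (chr1:42696241-42696887, 2.87) and 14.3 kb from its other end (chr1:42714256-42714854, 3.98). The last was also in both ectoderm replicates (3.79 and 4.58), the first in ectoderm replicate 1 (3.74) and the second in no other library. The shared region 18.6 kb from the gene had a −log10 p of 5.35 in the lower and 6.19 in the upper molar. Neither incisor nor Sox2-positive cells had a peak in any of the 3 upper-only regions. These upper-only peaks ranked from 44632 to 67128, so none is among the first 38326. At that list length the window had 1 upper-only region, a different one, and 1 shared region.

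Other maxillary genes had one-molar regions on both sides or none within 50 kb. The Iroquois homeobox gene Irx5 had 2 lower-only, 2 upper-only and 18 shared regions, the strongest with a −log10 p of 9.65 and 9.31. The forkhead gene Foxl2 had 2 shared regions only, the stronger at 8.95 and 8.87. Nr2f1, a nuclear receptor gene, had 5 shared regions only. Its paralogue Nr2f2 had 1 lower-only, 2 upper-only and 7 shared regions. Within 25 kb, Irx5 and Nr2f2 each had 0 lower-only and 2 upper-only regions, and within 100 kb they had 3 and 2 each. At 38326 peaks per list Irx5 had 2 and 2, Nr2f2 had none of either and Nr2f1 had 1 upper-only region. The Irx5 one-molar peaks within 50 kb ranked from 52349 to 63827 in the full lists, so those 2 and 2 are other regions.

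Dlx1 and Dlx2, whose joint loss removes the upper molars, shared 3 upper-only regions and had no lower-only region. Of these, 2 lay inside the neighbouring gene Metap1d, chr2:71512241-71512794 (−log10 p of 4.03) and chr2:71522794-71523377 (3.76), and neither had a peak in any other library. The third, chr2:71543998-71544799 inside Dlx2, had 3.26 in the upper molar and 3.65 in ectoderm replicate 1. The strongest region of the locus, chr2:71528482-71531254 over Dlx1, was shared, with a −log10 p of 8.24 in the lower and 7.84 in the upper molar. At 38326 peaks per list neither gene had a one-molar region, and within 100 kb on either side each had 2 lower-only and 3 upper-only regions. Inhba had 1 upper-only region (3.76, also in the incisor at 3.95) and 4 shared regions.

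**Figure D4:**
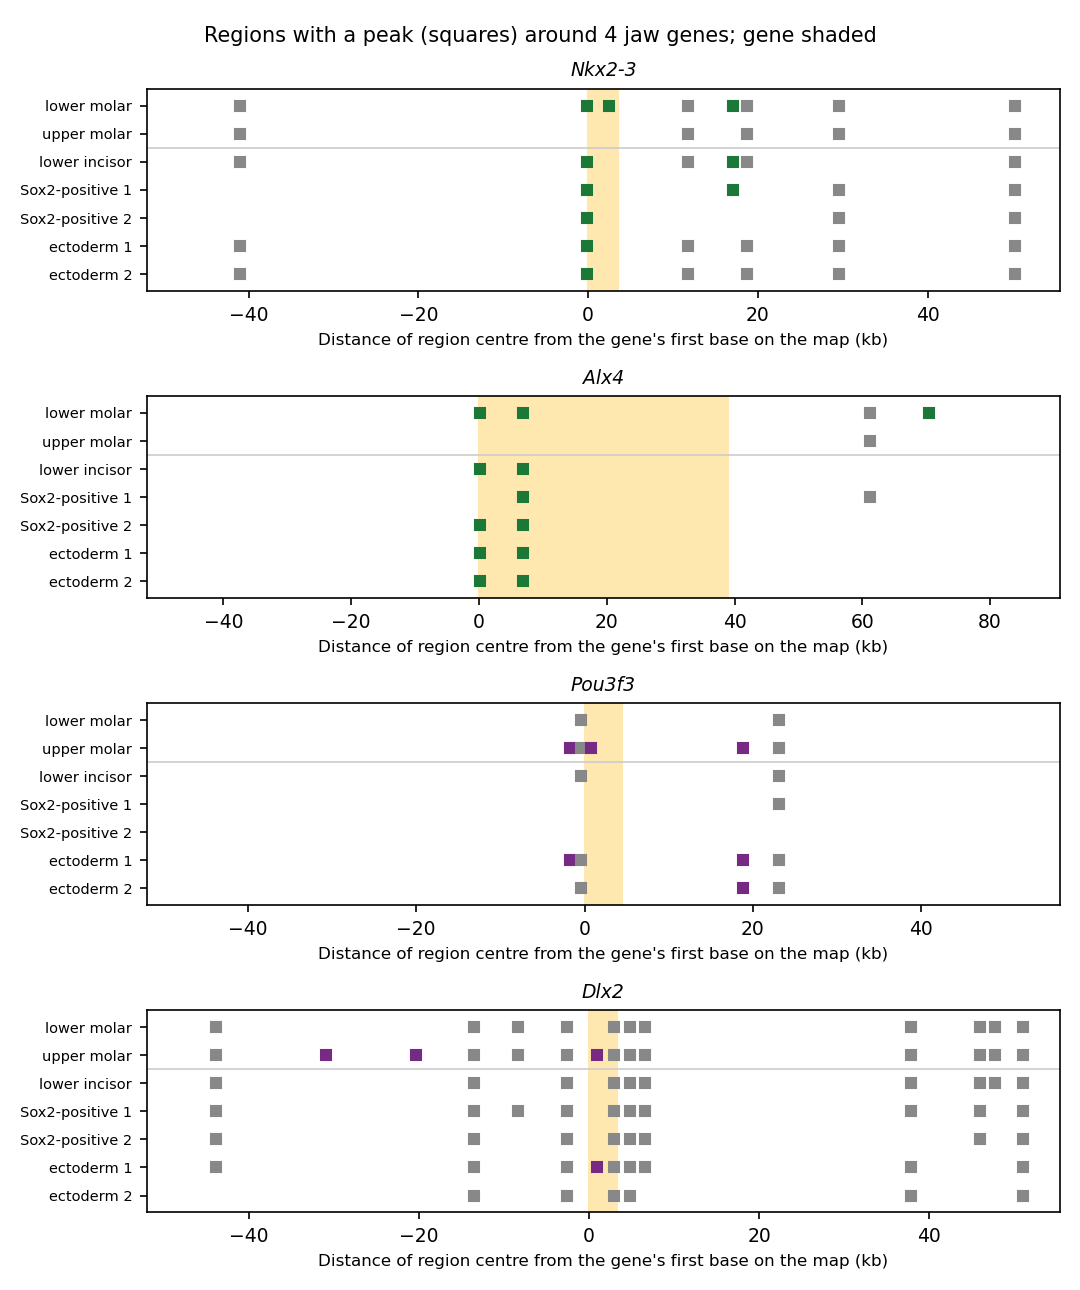
Regions with a peak (squares) in each of the 7 libraries around Nkx2-3, Alx4, Pou3f3 and Dlx2, by distance of the region's centre from the lowest coordinate of the gene (x axis, kb); green is lower-only, purple upper-only, grey shared, and the gene body is shaded. At Nkx2-3 the region at the promoter is filled in every library except the upper molar.

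Gene lists for the tissues of a tooth and its surroundings gave the wider picture. Each region was assigned to the nearest gene end within 100 kb, which placed 64242 regions, 7936 of them lower-only (12.4%) and 5954 upper-only (9.27%). Genes of the tooth-forming field, such as Pax9, Msx1 and Shh, had 23 lower-only, 29 upper-only and 129 shared regions, so that 12.7% were lower-only and 16.0% upper-only. Lef1, the nuclear effector of WNT signalling, had 1 lower-only and 4 upper-only regions with 13 shared. Edar, the ectodysplasin receptor, had 0, 2 and 10. Pax9, a paired-box gene without which teeth arrest, had 0, 2 and 4. Fgf10, a mesenchymal growth factor for epithelial stem cells, had 2 lower-only regions and no other, and the one at its promoter had a −log10 p of 3.28 in the lower molar, 3.72 in the incisor, 4.60 and 5.40 in the ectoderm replicates and 3.33 in Sox2-positive replicate 1. The 102 regions of the mandibular genes were 16.7% lower-only and 14.7% upper-only, and the 57 of the maxillary genes 14.0% each, or 8 and 8 regions. The 23 regions of the one-jaw molar genes were 8.70% each, or 2 and 2 regions, and 0 and 2 when assigned within 25 kb. When regions were assigned only within 25 kb, the maxillary genes had 2 lower-only and 8 upper-only regions, the mandibular genes 13 and 9, and the tooth-field genes 14 and 13. At 38326 peaks per list these were 3 and 4, 9 and 5, and 9 and 13. Over all genes, most one-molar regions at that length are shared in the full lists.

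Lower-only regions were densest at genes of dental mesenchyme and of blood vessels. Dental mesenchyme and odontoblast genes had 22 lower-only regions (27.2%), 9 upper-only (11.1%) and 50 shared. Col1a1, a chain of type I collagen, had 6 lower-only, 0 upper-only and 7 shared regions. Col1a2 and the mesenchymal receptor Pdgfra had 3 lower-only and 0 upper-only each, and Dmp1, an odontoblast matrix gene, had 3 and 1. Prrx1, a mesenchymal homeobox gene, went the other way with 0 lower-only and 4 upper-only, and Ibsp with 0 and 2. Endothelial genes had 15 lower-only (35.7%), 4 upper-only (9.52%) and 23 shared regions, among them 6, 1 and 4 at Cdh5, the endothelial cadherin, and 4, 0 and 4 at Kdr, a VEGF receptor. These 2 genes held 10 of the 15. Erg, an ETS factor of endothelium, had 2 lower-only and 3 upper-only regions, Pecam1, Tek and Tie1 had 1 lower-only region each, and Sox17 and Emcn had none of either. With both lists held to 38326 peaks, the mesenchymal list had 7 lower-only and 4 upper-only regions, the endothelial list 3 and 1, and the bone and cartilage list 2 and 3. Again, most one-molar regions at that length over all genes are shared in the full lists. Dental epithelium and ameloblast genes had 15 lower-only, 7 upper-only and 103 shared regions. Bone and cartilage genes had 9, 4 and 47, neural, Schwann and pigment genes 8, 5 and 45, and blood and immune genes 1, 3 and 22. Oral mucosa genes had 1, 1 and 12, skeletal muscle genes 2, 2 and 12, and Hox genes 2, 0 and 7.

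**Figure D5:**
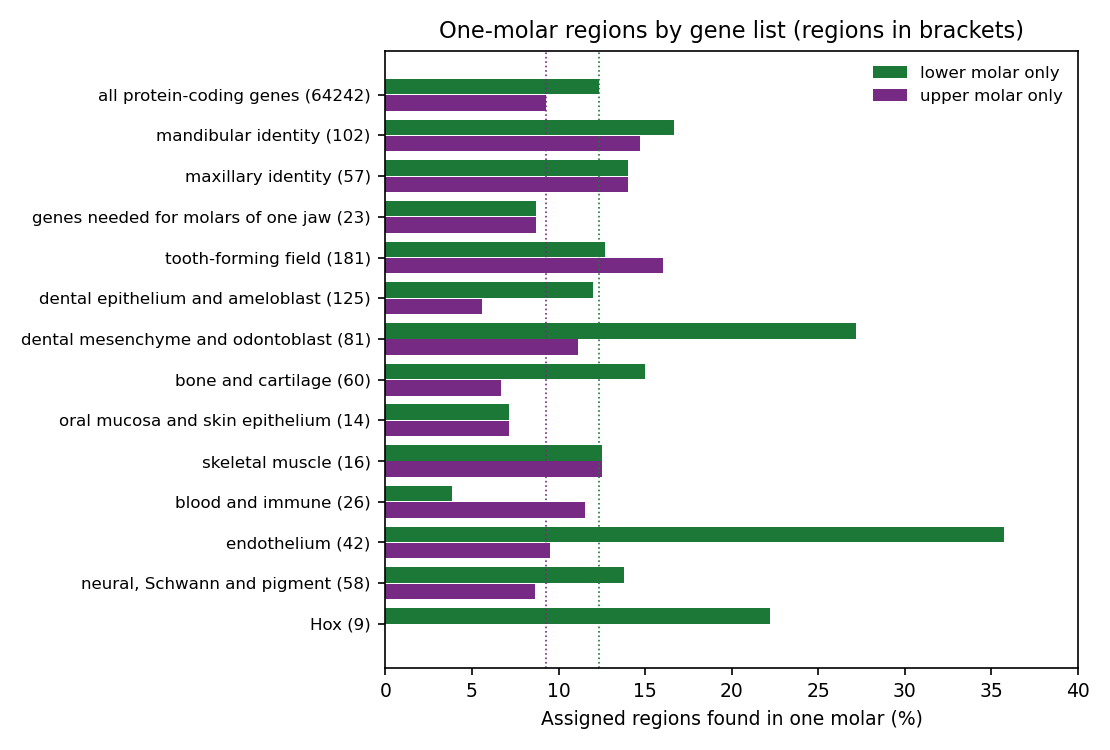
Share of assigned regions (x axis, %) that were lower-only and upper-only for each gene list, with the number of regions in brackets; dotted lines mark the shares over all protein-coding genes. Lower-only bars are longest for endothelium (35.7%) and for dental mesenchyme and odontoblast genes (27.2%), where upper-only bars stay at 9.52% and 11.1%.

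Peaks within 1 kb of an end of each marker were counted. Such peaks do not tell these tissues apart, as Col1a1, Krt14 and Ckm had one in all 7 libraries. The counts therefore do not check the labels, and the share over all genes was not computed. Of 19 autosomal tooth-field genes 17 had one in the lower and 16 in the upper molar, and of 15 epithelial and ameloblast genes 11 and 12. Of 11 mesenchymal genes 6 had one in each molar. The defining odontoblast gene Dspp had none in either molar and one in the incisor. Endothelial genes had an end peak in 5 of 8 cases in the lower molar and 2 of 8 in the upper, with Cdh5, Tie1 and Erg the genes that differed, and Pecam1 and Tek had none in either. Blood genes had 2 and 3 of 8, muscle genes 5 and 4 of 9, and Hox genes 0 of 10 in each. The share of vessel cells in each tooth was not measured, and its part in the lower-only regions was not tested.

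Promoters rarely separated the molars. Of 20085 RefSeq promoter windows, 11810 (58.8%) met a shared region, 7903 (39.3%) met none, 194 (0.966%) met a lower-only region and 178 (0.886%) an upper-only region. The median GC content of the 300 bases was 61.4% for shared windows, 58% for lower-only, 56.2% for upper-only and 47.2% for windows without a region. Windows under lower-only regions had an incisor peak in 62.4% of cases and those under upper-only regions in 25.3%, while ectoderm replicate 1 had one in 63.9% and 75.8%. The promoters printed above, a few chosen from the 194 and 178, follow this split in part and add no support for it. Those of Nkx2-3, Fgf10 and Tie1 (upper molar absent) had an incisor peak, Gbx2 and Klk4 (lower molar absent) had none, and Rgs5 had one. Tie1, an endothelial receptor, had a −log10 p of 4.01 in the lower molar and no ectoderm peak. Klk4, an enamel protease, had 3.33 in the upper molar and was open in all 4 libraries of ectoderm and Sox2-positive cells. Windows were available for 14 of the 24 jaw genes and for 88 of 135 genes over all lists.

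The best-supported one-molar peaks lay mostly over 1 kb from a gene end, as did most peaks of both lists. Of the 30 lower-only peaks in the first 30000, 26 were over 1 kb from a gene end, 22 had an incisor peak, 9 an ectoderm peak and 11 a Sox2-positive peak, and 7 were in no other library. Of the 29 upper-only peaks, 28 were over 1 kb from a gene end, 9 had an incisor peak, 7 an ectoderm peak and 5 a Sox2-positive peak, and 15 were in no other library. Over all autosomal peaks, 18.6% of lower and 18.8% of upper molar summits lay within 1 kb of a gene end. Between ranks 20001 and 30000, 21.75% of all lower and 23.59% of all upper molar peaks had no incisor peak. No such share was computed for ectoderm, for Sox2-positive cells or for peaks in no other library, so those counts have no background. A peak of the other molar lay within 1 kb of 5 of the lower-only and 2 of the upper-only peaks.

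The genes nearest to the 10 best lower-only peaks were Dsc3, Nkx2-3, Erlin2, Vwa8, Hsd17b12, Acot7, Vwa5a, Slc24a2, Hlx and Smoc2. Dsc3, a desmosomal cadherin of stratified epithelia, had a peak 0.656 kb from its end with a −log10 p of 5.23, and an upper molar peak lay within 1 kb of it. The homeobox gene Hlx had a peak 0.191 kb from its end with 4.86, shared with both ectoderm replicates, the incisor and Sox2-positive replicate 2. The genes nearest to the 10 best upper-only peaks were Aldh8a1, Errfi1, Stim2, Dhx32, Arpp21, Pappa2, Pkdcc, Specc1, Macrod2 and Mta3. The first, chr10:21573558-21574237, lay 177 kb from Aldh8a1, a retinoid-metabolising aldehyde dehydrogenase gene, with a −log10 p of 5.32 and a peak in the incisor. The peak 11.0 kb from Errfi1, a feedback inhibitor of EGF receptor signalling, had 5.09 and was in no other library. Pkdcc, a secreted tyrosine kinase gene, lay 211 kb from a peak with 4.88 that was also in no other library.

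Genes with several one-molar regions of a single jaw were few. Of 15513 genes with any assigned region, 1.67% had at least 3 lower-only and no upper-only regions, and 0.741% had at least 3 upper-only and no lower-only regions, a rule chosen after the values were seen. Col1a1, with 6 lower-only regions, was among the first group.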

How the data were processed

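Peak lists of 2 whole first molars were compared, with the other 5 libraries as reference. The deposited peak lists were made with Genrich, and the submitters' processing notes also name FastQC, Trimmomatic, Bowtie2, deepTools and the mouse build mm10, without versions. Whether replicates were pooled in calling is not given in the sources used here, but each library has its own list. Of the values the authors deposited, the −log10 p of each peak ranked the peaks, and the signal of each peak broke ties and served as another ranking. The score the authors deposited for each peak, a display value with a ceiling, was not used. Read counts were not used here, so the depth behind each peak is unknown, and p-values ranked peaks only within a list. Values of −log10 p printed side by side for several libraries mark the presence of a peak, and their sizes are not comparable between lists. The labels do not say whether samples came from separate animals.

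Overlaps were computed in Python 3.11.15 with pandas 2.3.3, numpy 2.4.6 and scipy 1.17.1, and checked on simulated data. Figures used matplotlib 3.10.9. Only the 19 autosomes entered, a minimum overlap of 1 bp was used, and shares carry Wilson 95% intervals. Genes were 20665 protein-coding genes of the RefSeq GRCm38.p6 table. The members and gene lists were chosen with earlier results of these data known. Jaw-identity genes were named one by one, except for items not reported here, which stay in the counts. The other rule for naming genes used peaks among the first 20000 without a counterpart, and as there were none, the first 30000 and all one-molar regions were used, a choice made after the data were seen. Equal list lengths for the jaw genes were added at the same point.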

Additional observations from a re-analysis of the deposited data

Results flagged for a closer look

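Peaks outside the autosomes entered no comparison. The lower molar list held 1079 peaks on chromosome X, 4 on chromosome Y and 40 on unplaced contigs. The upper molar list held 1070 on chromosome X and 41 on unplaced contigs, and its 3 peaks on chromosome Y were not above the limit of 3 counts used for a count of 0. On chromosome X, 1176 merged regions included 944 shared, 116 lower-only (9.86%) and 116 upper-only (9.86%) regions. Of 7 regions on chromosome Y, 0 were shared.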

How the results depend on the processing

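Of 66 alternative values for the main results, 30 stayed within the spread allowed and 36 moved. Among 196 values for single genes and lists, 107 stayed and 89 moved. Lower-only regions numbered 4387 with lists of equal length by p-value, 4143 by signal and 4259 with the better 50% of each list, and upper-only regions 4407, 4155 and 3444. At equal list length the counts of the 2 classes were thus nearly equal. Shared regions hold peaks of both lists, so the difference between the classes largely follows the difference in list length. The shorter lists hold largely other one-molar regions. In the full lists, 30 lower and 29 upper molar peaks up to rank 30000 had no counterpart. Between ranks 30001 and 40000 there were 379 and 297. Most one-molar regions by p-value and in the better 50% are therefore shared regions of the full lists whose weaker peak was cut off. The share of lower-only regions with an incisor peak was 44.9% for windows of 200 bp around summits, 46.9% and 51.7% at equal length by p-value and signal, and 40.9% with the better 50%. For upper-only regions it was 30.0% and 30.1% at equal length, below the lower-only share each time. Shares within 1 kb of a gene end moved to 6.89% (lower-only, 50% coverage), to 11.5% and 11.7% (lower-only and upper-only, summit windows), to 7.57% and 8.53% (equal length by p-value), to 7.77% and 7.70% (by signal) and to 8.90% and 9.23% (better 50%). They were 3.39% and 3.74% for 500 bp and 13.6% and 11.4% for 2.5 kb. Among the first 20000 peaks, those without a counterpart numbered 59 and 97 (lower and upper) when 50% of the peak had to be covered, 681 and 689 for summit windows, 2 and 4 by signal, 36 and 28 against lists of equal length (chosen after seeing the data), and 30 and 29 for the first 30000. The order of the gene-end shares turned in 4 of these settings (summit windows, equal length by p-value, better 50%, 500 bp). Jaw genes with lower-only regions alone numbered 2 within 100 kb, and at equal length 5 had lower-only and 4 upper-only regions alone, against 4 and 6. Causes were not tested, beyond shorter lists holding fewer peaks. No paired analysis was possible because each jaw has 1 library.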

Other observations

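Some genes collected several one-molar regions of 1 jaw. By a rule chosen after the values were seen, genes with at least 3 assigned regions of one molar and none of the other were listed, which gave 1.67% of 15513 genes with any region for the lower and 0.741% for the upper molar. On the lower side Tns3, which encodes a tensin of focal adhesions, had 8 lower-only and 29 shared regions, and Smad3, a transducer of TGF-beta signals, had 8 and 21. Hectd4 and Spred2, the second an inhibitor of ERK signalling, had 7 each, beside 6 and 16 shared ones. Col1a1 and Vdr, the vitamin D receptor gene, had 6 each, beside 7 and 8 shared ones. Bahcc1, Rgs3, Mtss1 and Itpr1 also had 6 each, beside 19, 31, 18 and 8 shared ones. Over all assigned regions 12.4% were lower-only and 9.27% upper-only. Ordering by number favours genes with many regions.

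On the upper side Map3k5, a stress-activated kinase gene, Meis1, a TALE homeobox gene, and Sncaip had 7 upper-only regions each, beside 5, 6 and 9 shared ones. Phactr2, Exoc6 and Mcc had 6 each, beside 6, 4 and 13 shared ones. Hmga2, an architectural chromatin protein gene, had 5 upper-only and 22 shared regions, and Lrba and Rgma had 5 upper-only regions each. The best rank of any of these one-molar peaks was 30037 on the lower side, at Hectd4, and 38853 on the upper side, at Hmga2, among peaks of which 3.79% (lower) and 2.97% (upper) had no counterpart.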
